A study of Mus musculus with 9 samples.

Results

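The genes described here were 35 genes listed for the excitatory neurons of the mouse cerebral cortex, chosen by name as genes of cortical development and of glutamatergic synapses. Not all of them are specific to cortex. All 35 were found among the 38621 genes of the deposited table, and all 35 passed the filter on low values that left 29025 genes to test. They comprised 11 transcription regulators, 6 genes of the upper cortical layers, 4 of the deep layers, 2 of the subplate, 7 genes of the synapse and of signaling, and 5 other genes enriched in cortex. The text of the study names 3 of them from these same libraries (Tbr1, Emx1 and Gm11549), and all 35 were listed with earlier results of these libraries known, so neither the list nor its remainder is independent evidence of a direction. Counts without the 3 are given beside the main ones.

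Messenger RNA of brain tissue was sequenced from male C57BL/6 mice in 3 groups of 3 mice to find the genes that differ after intracerebral hemorrhage (ICH) and after febuxostat, an inhibitor of xanthine oxidase used against gout. In the ICH group, 30 μl of the animal's own whole blood was injected into the brain. The feb group received febuxostat by gavage at 50 mg/kg once a day for 5 days and then the same 30 μl of blood, while the sham group was injected with saline according to the methods and is called untreated in the labels. Each sample was 1 mouse, and the sources used here give neither the age of the animals nor the brain region and time at which this RNA was taken.

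Cortical excitatory neurons are glutamatergic projection neurons. Their precursors in the dorsal telencephalon express Emx1 and Emx2, newborn neurons switch on the NeuroD proteins and Tbr1, and layer-specific factors such as Fezf2 in the deep layers and Cux2 in the upper layers then set where the axons go. Mature cells load glutamate into vesicles with VGLUT1, encoded by Slc17a7, and hold large amounts of Camk2a and Nrgn at their postsynaptic sites.

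Values are RPKM, the reads on a gene per kilobase of exon, scaled to the total of reads counted in the sample. The samples held 23065757 to 29538009 reads on genes, and at these depths 3 reads on 1 kb of exon equalled an RPKM of 0.102 to 0.130. A gene was called a DEG by the study's criteria, an unadjusted p under 0.05 in limma and a fold change over 2, both on the log2(RPKM + 0.1) scale, where the change of a weakly expressed gene looks smaller than the ratio of its RPKMs. Errors of log2 fold changes are standard errors (SE) from the same fit. P-values were adjusted by the method of Benjamini and Hochberg over the 29025 genes, and no member passed an adjusted p of 0.05 in any comparison. Markers of neurons in general (Snap25, Rbfox3 and 6 more) were present in all 9 samples, at a summed RPKM of 815 to 1128 in sham, 804 to 870 in ICH and 780 to 952 in feb samples. In bulk tissue, fewer cells of a type and less RNA per cell cannot be told apart.

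In the ICH group, 13 of the 35 genes rose against sham and 0 fell. Over all genes tested, 1.46% were called higher and 1.07% were called lower. By count that was 423 and 312 genes, and after scaling to equal medians it was 296 and 443, with 12 members higher and 0 lower. The 13 were the regulators Tbr1, Emx1, Neurod2, Neurod6 and Fezf2, the synaptic and signaling genes Slc17a7, Nrgn and Sla, and 3110035E14Rik, Scube1, Gm11549, Dkkl1 and Myl4. The adjusted p of the 13 lay between 0.245 and 0.390 in limma. All ICH samples lay above all sham samples for 19 members and below them for 0, where 13.2% of all genes had no overlap with ICH higher and 6.22% with ICH lower. The log2 fold change was positive for 29 of the 35 members and for 61.1% of all genes tested, with a median of 0.88 for the members and 0.08 for all genes. At an unadjusted p under 0.05 in limma without the fold change, 21 members were higher and 0 lower, where the shares over all genes were 7.88% and 4.42%. Without the 3 members named in the study's text, 10 of 32 were called higher and 0 lower, and the median log2 fold change was 0.84.

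In the feb group, 7 of the 35 genes fell against ICH and 0 rose, where 1.05% of all genes were called lower and 1.38% higher. The 7 were Tbr1, Emx1, Mef2c, Hs3st2, 3110035E14Rik, Gm11549 and Myl4, with an adjusted p between 0.261 and 0.438 in limma. The feb samples lay below all ICH samples for 9 members and above them for 0, where 10.1% of all genes had no overlap with feb lower and 7.04% with feb higher. At an unadjusted p under 0.05 in limma without the fold change, 14 members were lower and 0 higher, beside 6.16% and 4.9% of all genes. The median log2 fold change was -0.49 for the members and -0.01 for all genes. Of the 32 members outside the study's text, 4 were called lower (Mef2c, Hs3st2, 3110035E14Rik and Myl4) and 0 higher, at a median of -0.47. The same ICH samples enter both comparisons, so the rise against sham and the fall against ICH are not independent of each other.

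Against sham, 4 members rose in the feb group and 0 fell, where 1.59% of all genes were called higher and 0.613% lower. By count that was 461 and 178 genes, and after scaling to equal medians it was 300 and 252, with 3 members higher and 0 lower. The 4 were Neurod2, Neurod6, Bhlhe22 and Fezf2, with an adjusted p between 0.565 and 0.582 in limma. The groups had no overlap for 5 members with feb higher (Emx2, Neurod2, Neurod6, Bhlhe22 and Slc17a7) and for 1 with feb lower (Cux1), where the shares over all genes were 7.78% and 4.9%. An unadjusted p under 0.05 in limma, without the fold change, was reached by 7 members, all higher in feb (also Emx2, Slc17a7 and Camk2a), where 5.63% of all genes were higher and 2.9% lower. The median log2 fold change was 0.16 for the members and 0.05 for all genes. None of the 4 is named in the study's text, and the other 32 members then had the same 4 calls at a median of 0.15.

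Put together by gene, 5 members were called in both comparisons with the ICH group, 8 only against sham, 2 only against feb, and 20 in neither. The mean RPKM was highest in the ICH group for 24 members, in the sham group for 7 and in the feb group for 4. Shares over all genes were not computed for these joint counts or for the highest means. They are therefore not read as a trait of the members. Of all genes tested, 61.1% had a positive log2 fold change for ICH against sham and 47.8% for feb against ICH. Each of the 9 samples is shown for every member in the heat map of log2 values over the sham mean.

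**Figure D1:**
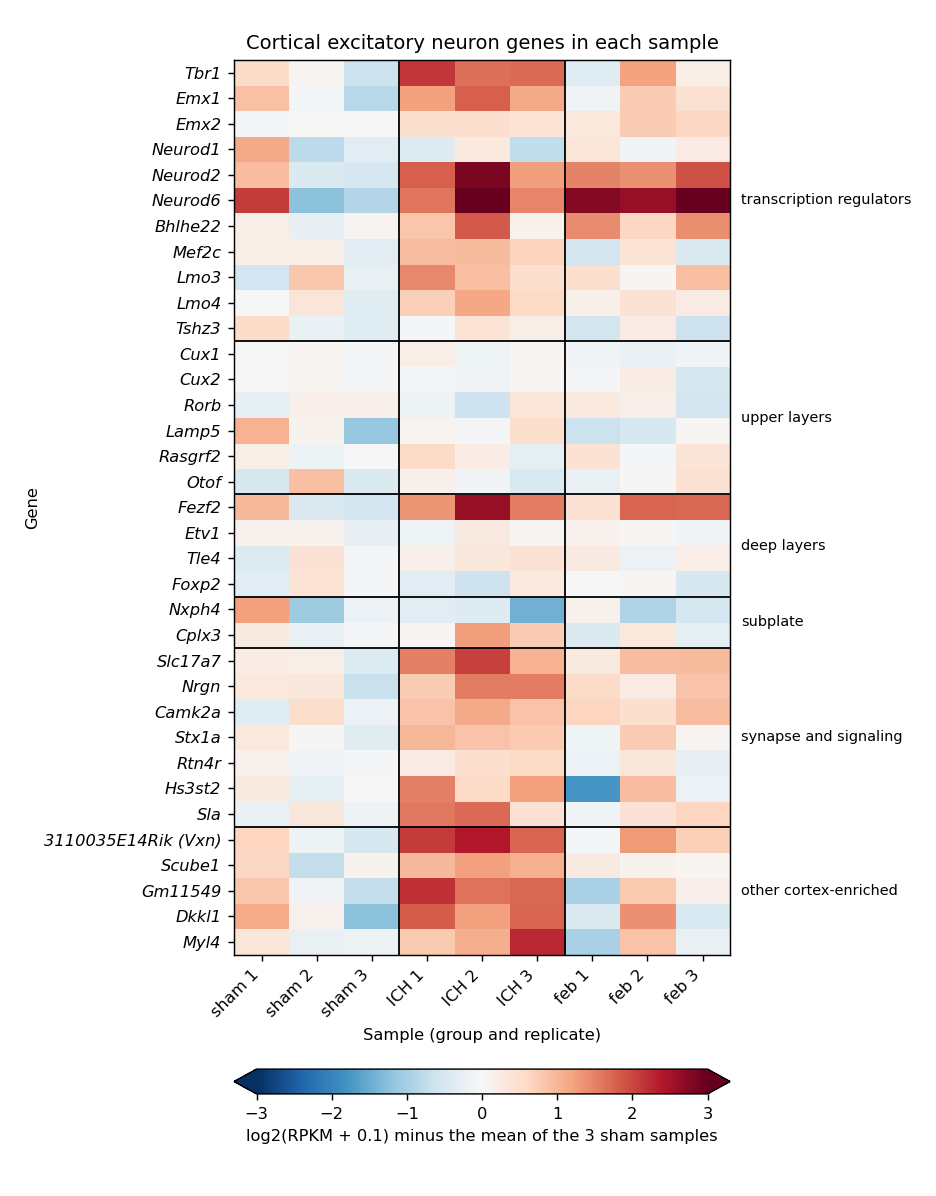
Each row is 1 of the 35 genes, grouped by role, and each column is 1 of the 9 samples, with the color giving log2(RPKM + 0.1) minus the mean of the 3 sham samples (values beyond 3 take the end color). The ICH columns are red for most regulators, synaptic genes and other cortex-enriched genes, while the rows of Cux1, Cux2, Etv1 and Tle4 stay near white in all 9 samples.

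Neurod2 and Neurod6, which encode basic helix-loop-helix activators of excitatory neuron differentiation, were called in both blood-injected groups against sham, as was the deep-layer factor Fezf2. The RPKM of Neurod2 (chromosome 11, 98325415 to 98329648, GRCm38) was 5.70, 2.14 and 2.05 in sham samples, 10.4, 21.3 and 7.09 in ICH samples and 8.39, 7.75 and 11.3 in feb samples. Every ICH sample and every feb sample lay above every sham sample, and ICH 2 was the highest of the 9. Its log2 fold change was 1.95 (SE 0.47, adjusted p = 0.334 in limma) for ICH against sham and 1.59 (SE 0.47, adjusted p = 0.565 in limma) for feb against sham, with no call between feb and ICH at -0.36.

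Neurod6 (chromosome 6, 55677822 to 55681263) had an RPKM of 10.3, 0.925 and 1.22 in sham samples, 7.29, 29.7 and 6.54 in ICH samples and 16.3, 14.8 and 21.4 in feb samples. Sham 1 lay above ICH 1 and ICH 3, so sham and ICH overlapped, whereas all feb samples were above all sham samples. The log2 fold change was 2.23 (SE 0.88, adjusted p = 0.387 in limma) for ICH and 2.84 (SE 0.88, adjusted p = 0.565 in limma) for feb against sham. The ICH call was lost without ICH 2, at 1.53, without sham 2, at 1.61, and without sham 3, at 1.79, and its p was 0.0658 in limma when only these 2 groups were fitted, while the feb call was kept in every alternative that used the fold change.

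NeuroD proteins bind E-boxes, written CANNTG, of which CAGATG is a preferred form. The 250 bases before the RefSeq start of transcription in GRCm38.p6 are printed for both genes because they were called together, 5′ to 3′ on the strand of the gene, with E-boxes in capitals. The first lies at chr11:98329646-98329895 on the minus strand and the second at chr6:55681264-55681513 on the minus strand.
Neurod2: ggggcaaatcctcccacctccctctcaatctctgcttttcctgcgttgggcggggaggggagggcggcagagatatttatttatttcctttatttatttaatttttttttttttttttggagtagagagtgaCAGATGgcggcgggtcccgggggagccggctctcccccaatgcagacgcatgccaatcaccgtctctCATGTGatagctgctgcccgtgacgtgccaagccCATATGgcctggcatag
Neurod6: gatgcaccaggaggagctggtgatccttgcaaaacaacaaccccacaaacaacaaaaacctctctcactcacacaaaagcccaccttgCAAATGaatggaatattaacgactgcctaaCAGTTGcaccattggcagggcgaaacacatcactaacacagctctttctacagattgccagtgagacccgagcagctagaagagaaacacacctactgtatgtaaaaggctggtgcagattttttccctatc
The window of Neurod2 held 3 E-boxes, 1 of them CAGATG, and that of Neurod6 held 2 and no CAGATG. Among the 36 RefSeq promoters listed for 27 of the members, 69.4% held CANNTG and 16.7% held CAGATG on either strand, where the shares over 32851 mouse promoters were 66.2% and 14.4%. Every CAGATG is also counted as CANNTG. The T-box motif AGGTGT, the kind of sequence that Tbr1 binds, stood in 13.9% of the members' promoters and in 11.8% of all promoters.

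Neurod1, the third NeuroD gene in the list, did not follow its relatives. Its RPKM was 4.79, 1.19 and 1.66 in sham samples, 1.60, 2.65 and 1.25 in ICH samples and 2.77, 2.02 and 2.54 in feb samples, so the groups overlapped in every comparison. Its log2 fold change for ICH against sham was -0.27 (SE 0.47). Sham 1 had the highest value of the sham group for all 3 NeuroD genes.

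Tbr1 (chromosome 2, 61802930 to 61814114), a T-box factor of deep-layer and other early-born cortical neurons, was called in both comparisons with the ICH group. Its RPKM was 2.10, 1.50 and 0.869 in sham samples, 6.49, 4.62 and 4.76 in ICH samples and 1.07, 3.37 and 1.63 in feb samples. The lowest ICH sample was above the highest of the other 6. The mean was 3.55-fold higher in ICH than in sham samples, with a log2 fold change of 1.82 (SE 0.42, adjusted p = 0.330 in limma), and 2.61-fold lower in feb than in ICH samples, with a log2 fold change of -1.48 (SE 0.42, adjusted p = 0.302 in limma). Both calls held in every alternative that used the fold change.

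Emx1 (chromosome 6, 85187438 to 85204462) and Emx2 (chromosome 19, 59458372 to 59465357) encode homeobox factors of the dorsal telencephalon. Emx1 had an RPKM of 1.18, 0.578 and 0.293 in sham samples, 1.53, 2.32 and 1.43 in ICH samples and 0.553, 1.09 and 0.854 in feb samples. Here too the ICH samples stood above all 6 others. The log2 fold change was 1.38 (SE 0.42, adjusted p = 0.347 in limma) against sham, a call lost without sham 3 at 0.97 and with a pseudocount of 1 at 0.73, and -1.01 (SE 0.42, adjusted p = 0.438 in limma) for feb against ICH, a call lost without any 1 of 6 samples (sham 2, ICH 1, ICH 2, ICH 3, feb 1 or feb 3), at -0.78 without feb 1, and with a pseudocount of 1, at -0.59. With a pseudocount of 0.01 the call of Emx1 for feb against ICH was lost too. Emx2 was steadier, with an RPKM of 3.10, 3.21 and 3.20 in sham samples, 4.46, 4.53 and 4.22 in ICH samples and 3.98, 5.41 and 4.94 in feb samples. Both blood-injected groups were above all sham samples for Emx2 by less than the fold change required, at log2 fold changes of 0.46 (SE 0.12, adjusted p = 0.334 in limma) and 0.56 (SE 0.12, adjusted p = 0.477 in limma). Exons of Emx2 share 264 bases with those of Emx2os on the opposite strand, and whether the reads were counted by strand is not given in the sources used here.

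Mef2c (chromosome 13, 83504034 to 83667080), a MADS-box factor that controls synapse number, had an RPKM of 10.2, 10.2 and 7.07 in sham samples, 17.2, 17.6 and 14.5 in ICH samples and 6.17, 11.97 and 6.59 in feb samples. All ICH samples were above all sham and feb samples. It fell in the feb group by 1.05 on the log2 scale against ICH (SE 0.25, adjusted p = 0.261 in limma), and its value against sham, 0.85 (SE 0.25, adjusted p = 0.345 in limma), was under the fold change required. The fall was under that fold change without feb 1, at -0.87, without feb 3, at -0.92, and, by a small margin, without ICH 2. The call was also lost with a pseudocount of 1.

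Bhlhe22 (chromosome 3, 18054174 to 18057517), a helix-loop-helix transcriptional repressor involved in setting cortical area identity, had an RPKM of 2.65, 1.97 and 2.49 in sham samples, 4.25, 8.74 and 2.55 in ICH samples and 6.50, 3.67 and 6.35 in feb samples. Only the feb samples cleared all sham samples, since ICH 3 lay below sham 1. Its log2 fold change for feb against sham was 1.15 (SE 0.41, adjusted p = 0.565 in limma), and the p was over 0.05 without sham 2, at 1.03, without feb 1, at 1.01, and without feb 3, at 1.02. The call was also lost with a pseudocount of 1. The LIM-only cofactors Lmo3 and Lmo4 had log2 fold changes of 0.95 and 0.82 for ICH against sham, and neither was called with all samples. Lmo3 was called without sham 2, at 1.35, or without ICH 3, at 1.18, and Lmo4 without sham 2. Tshz3, a zinc finger factor of corticostriatal neurons, overlapped between the groups in every comparison.

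**Figure D2:**
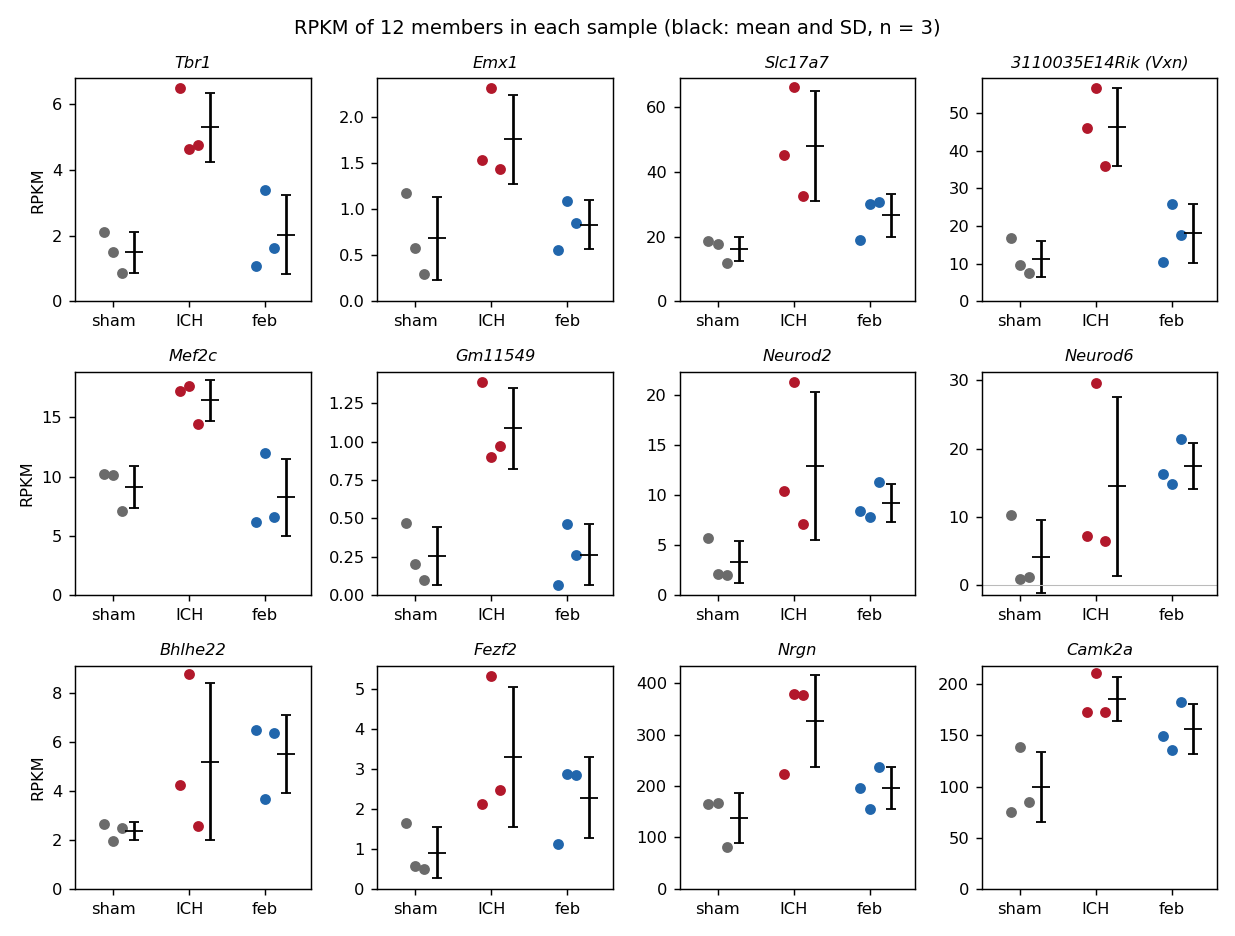
RPKM of 12 members in each of the 3 sham (grey), 3 ICH (red) and 3 feb (blue) samples, with the mean and SD (n = 3) in black beside each group and a separate linear axis for each gene. Tbr1, Emx1, 3110035E14Rik, Mef2c and Gm11549 are high in the ICH samples alone, while Neurod2 is above all sham samples in both other groups and Neurod6 and Bhlhe22 are so only in the feb samples.

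None of the 6 upper-layer genes was called in any comparison, and their median log2 fold change was 0.01 for ICH against sham, 0.01 for feb against ICH and -0.07 for feb against sham. In the same order, 1.46%, 1.38% and 1.59% of all genes were called higher and 1.07%, 1.05% and 0.613% lower. At such shares, the lack of calls among 6 genes is no result about the upper layers. Cux1 and Cux2, homeobox factors of layers near the cortical surface, had mean RPKMs of 8.27 ± 0.264 and 9.36 ± 0.388 (SD, n = 3) in sham samples and 8.60 ± 0.985 and 9.17 ± 0.449 (SD, n = 3) in ICH samples. Cux1 was lower in every feb sample (7.80, 7.15 and 7.80) than in every sham sample (8.20, 8.56 and 8.05), at a log2 fold change of -0.12 (SE 0.10), with an unadjusted p in limma of 0.236. Rorb, a nuclear receptor of the input layer of sensory cortex, had mean RPKMs of 6.85, 6.40 and 6.82 in the sham, ICH and feb groups. Lamp5, Rasgrf2 and Otof overlapped between the groups in every comparison, with log2 fold changes from -0.55 to 0.26.

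Fezf2 (chromosome 14, 12341892 to 12345865), the factor that directs deep-layer neurons to project below the cortex, was the 1 deep-layer gene of 4 that was called. Its RPKM was 1.66, 0.565 and 0.510 in sham samples, 2.13, 5.33 and 2.47 in ICH samples and 1.11, 2.89 and 2.86 in feb samples. The ICH samples were above all sham samples, and feb 1 lay below sham 1. Its log2 fold change was 1.82 (SE 0.53, adjusted p = 0.345 in limma) for ICH and 1.30 (SE 0.53, adjusted p = 0.582 in limma) for feb against sham. The second call had a p over 0.05 without sham 2, at 1.09, sham 3, at 1.03, feb 2, at 1.09, or feb 3, at 1.09, and also with a pseudocount of 1, at 0.78, after scaling to equal medians, at 1.19, or quantile normalization, at 1.21. Etv1, Tle4 and Foxp2, which mark other deep-layer neurons, had log2 fold changes between -0.22 and 0.31 in all 3 comparisons and were called in none. Of all genes, 1.46% were called higher for ICH against sham and 1.59% for feb against sham. Foxp2 and several other layer genes are also transcribed in striatum or thalamus, so in whole tissue they are less specific to cortex than Tbr1 or Emx1.

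Neither of the 2 subplate genes, which mark the cells beneath the deepest layer, was called with all samples. With so few genes, that is no result about the subplate. Nxph4, a neurexin ligand, had an RPKM of 2.83, 0.503 and 1.02 in sham samples and 0.902, 0.863 and 0.365 in ICH samples, with sham 1 far above the rest. Its log2 fold change was -0.71 (SE 0.57), and without sham 2 it was called lower, at -1.24. Cplx3, a complexin of regulated vesicle fusion, had log2 fold changes of 0.69 for ICH against sham and -0.82 for feb against ICH, with sham and ICH samples overlapping. Without ICH 1 it was called in both, at 1.01 and -1.13, and without feb 2 in the second, at -1.04.

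The synaptic and signaling genes were higher in every ICH sample than in every sham sample for all 7, and 3 of the 7 were called. Over all genes, 13.2% had no overlap with ICH higher and 1.46% were called higher. Slc17a7 (chromosome 7, 45163949 to 45176142), the vesicular glutamate transporter that defines these neurons, had an RPKM of 18.5, 17.9 and 11.9 in sham samples, 45.2, 66.2 and 32.6 in ICH samples and 19.0, 30.2 and 30.7 in feb samples. The 3 groups did not overlap, with feb between sham and ICH. The mean was 2.98-fold higher in ICH than in sham samples, at a log2 fold change of 1.54 (SE 0.29, adjusted p = 0.277 in limma). The difference of feb from ICH, -0.82 (SE 0.29, adjusted p = 0.384 in limma), and that of feb from sham, 0.72 (SE 0.29, adjusted p = 0.582 in limma), had unadjusted p-values under 0.05 and were under the fold change required. The 250 bases before its RefSeq start, at chr7:45163671-45163920 on the plus strand of GRCm38.p6, held 1 E-box and no CAGATG, shown here in capitals for comparison with the NeuroD genes.
Slc17a7: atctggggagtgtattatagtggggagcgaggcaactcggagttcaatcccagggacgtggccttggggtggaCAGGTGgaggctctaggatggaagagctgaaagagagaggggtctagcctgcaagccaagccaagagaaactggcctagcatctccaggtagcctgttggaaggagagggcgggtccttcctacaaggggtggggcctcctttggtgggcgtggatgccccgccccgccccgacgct

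Nrgn (chromosome 9, 37544492 to 37552904) and Camk2a encode abundant postsynaptic proteins, a calmodulin-binding protein and a subunit of the calcium/calmodulin-dependent kinase. Nrgn had an RPKM of 164, 167 and 82.3 in sham samples, 224, 380 and 378 in ICH samples and 196, 156 and 237 in feb samples, the highest level per length among the called members. It rose in ICH by a log2 fold change of 1.28 (SE 0.32, adjusted p = 0.334 in limma), which was 0.94 without sham 3 and then under the fold change required. Camk2a had 74.7, 139 and 85.3 in sham samples, 173, 210 and 173 in ICH samples and 150, 135 and 183 in feb samples. Sham 2 stood above the other two sham samples and above feb 2. The log2 fold change of Camk2a in ICH against sham was 0.94 (SE 0.22, adjusted p = 0.334 in limma), just under the fold change required, and 1.21 without sham 2 (adjusted p = 0.0364 in limma), the single adjusted p under 0.05 of any member in any alternative.

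Sla (chromosome 15, 66780819 to 66831829), an adaptor that dampens receptor signaling, had an RPKM of 0.306, 0.487 and 0.321 in sham samples, 1.29, 1.40 and 0.532 in ICH samples and 0.337, 0.526 and 0.623 in feb samples. It rose in ICH by a log2 fold change of 1.24 (SE 0.37, adjusted p = 0.345 in limma), which a pseudocount of 1 lowered to 0.57, under the fold change required. Against ICH, the feb group gave -0.91 for Sla, which became a call without ICH 3, at -1.31, or without feb 3, at -1.07. It also became a call with a pseudocount of 0.01 and by voom on recovered reads. Hs3st2 (chromosome 7, 121391859 to 121501770), a heparan sulfate sulfotransferase, had 2.51, 1.69 and 2.08 in sham samples, 6.05, 3.14 and 5.02 in ICH samples and 0.533, 4.04 and 1.81 in feb samples. Feb 2 lay above ICH 2, and feb 1 was the lowest of the 9. For feb against ICH, Hs3st2 had a log2 fold change of -1.45 (SE 0.59, adjusted p = 0.420 in limma), which was -0.74 without feb 1, with the call also lost without ICH 1, at -1.25, ICH 3, at -1.39, or feb 3, at -1.53, and at a p of 0.0649 in limma when only these 2 groups were fitted. In ICH against sham Hs3st2 had 1.11 and was not called in the main fit. It was called without feb 1 or feb 2 and with only the sham and ICH groups fitted. These fits leave the groups of that comparison as they are and change the shared spread. Stx1a, a membrane protein of the vesicle fusion machinery, and Rtn4r, the receptor of the myelin protein Nogo, were higher in ICH than in sham samples without overlap, by 0.88 and 0.44 on the log2 scale, and were not called. Stx1a was called without sham 1, at 1.04.

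All 5 of the other cortex-enriched genes rose in ICH without overlap with sham, at a median log2 fold change of 1.60. Among all genes, 13.2% were higher in ICH without overlap and 1.46% were called higher, at a median of 0.08. 3110035E14Rik (chromosome 1, 9601199 to 9627143), also named Vxn or vexin and known from neurogenesis, had the lowest adjusted p of the members. Its RPKM was 16.7, 9.64 and 7.58 in sham samples, 46.0, 56.7 and 35.9 in ICH samples and 10.5, 26.0 and 17.6 in feb samples. The lowest ICH sample exceeded the highest of the others. It was 4.09-fold higher in ICH than in sham samples, at a log2 fold change of 2.08 (SE 0.37, adjusted p = 0.245 in limma), and 2.56-fold lower in feb than in ICH samples, at -1.42 (SE 0.37, adjusted p = 0.284 in limma). Both calls held in every alternative that used the fold change. Its exons share 452 bases, 13.9% of their length, with 2610203C22Rik on the opposite strand, which had a mean RPKM of 4.78.

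Gm11549 (chromosome 3, 36515057 to 36521813), a long non-coding RNA, had an RPKM of 0.467, 0.203 and 0.101 in sham samples, 1.39, 0.900 and 0.972 in ICH samples and 0.0668, 0.462 and 0.261 in feb samples. These values rest on 5 to 96 reads, and all ICH samples were above the other 6. Gm11549 rose by 1.84 on the log2 scale (SE 0.51, adjusted p = 0.343 in limma) against sham, and feb against ICH gave -1.85 (SE 0.51, adjusted p = 0.297 in limma). With a pseudocount of 1 the values were 0.73 and -0.73, and both calls were lost. Scube1 (chromosome 15, 83602583 to 83725021), a secreted protein with EGF-like domains, had 3.72, 1.42 and 2.55 in sham samples, 4.75, 5.75 and 5.12 in ICH samples and 2.89, 2.57 and 2.51 in feb samples. Its rise in ICH was 1.09 on the log2 scale (SE 0.29, adjusted p = 0.334 in limma), and it was under the fold change required without sham 2, at 0.73, and after scaling to equal medians, at 0.98. With a pseudocount of 1 the call of Scube1 was lost too. For feb against ICH it had -0.94 and was not called with all samples, although the groups did not overlap, and it was called without ICH 1, at -1.01, or without feb 1.

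Dkkl1 (chromosome 7, 45207519 to 45212147), a relative of the dickkopf Wnt inhibitors, had 1.10, 0.510 and 0.135 in sham samples, 1.87, 1.21 and 1.77 in ICH samples and 0.312, 1.33 and 0.303 in feb samples, on 6 to 73 reads. The ICH samples were above all sham samples, and feb 2 was above ICH 2. It rose in ICH by 1.60 on the log2 scale (SE 0.65, adjusted p = 0.390 in limma), a call lost without sham 2 (1.67), sham 3 (0.98), ICH 1 (1.49) or ICH 3 (1.53). With all samples, that call was also lost with a pseudocount of 1 (0.76) and, separately, after quantile normalization (1.49). Against ICH the feb group had -1.45 for Dkkl1, not called in the main fit. It was called without sham 1, sham 3 or feb 2, the last at -2.05. With no sample of the comparison left out, it was also called by voom on recovered reads, at -1.62, and with only these 2 groups fitted. Myl4 (chromosome 11, 104550663 to 104595753), a myosin light chain of embryonic and atrial muscle that is also made in cortex, had 0.526, 0.314 and 0.338 in sham samples, 0.740, 0.927 and 2.22 in ICH samples and 0.147, 0.777 and 0.318 in feb samples. ICH 3 was far above the rest, and feb 2 lay above ICH 1. Against sham, Myl4 had a log2 fold change of 1.38 (SE 0.52, adjusted p = 0.382 in limma), lost without ICH 3 (0.94), sham 2 (1.27) or sham 3 (1.31), and -1.49 (SE 0.52, adjusted p = 0.375 in limma) for feb against ICH, lost without ICH 3 (-1.05) or feb 1 (-1.06). Both were lost with a pseudocount of 1, at 0.67 and -0.67.

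**Figure D3:**
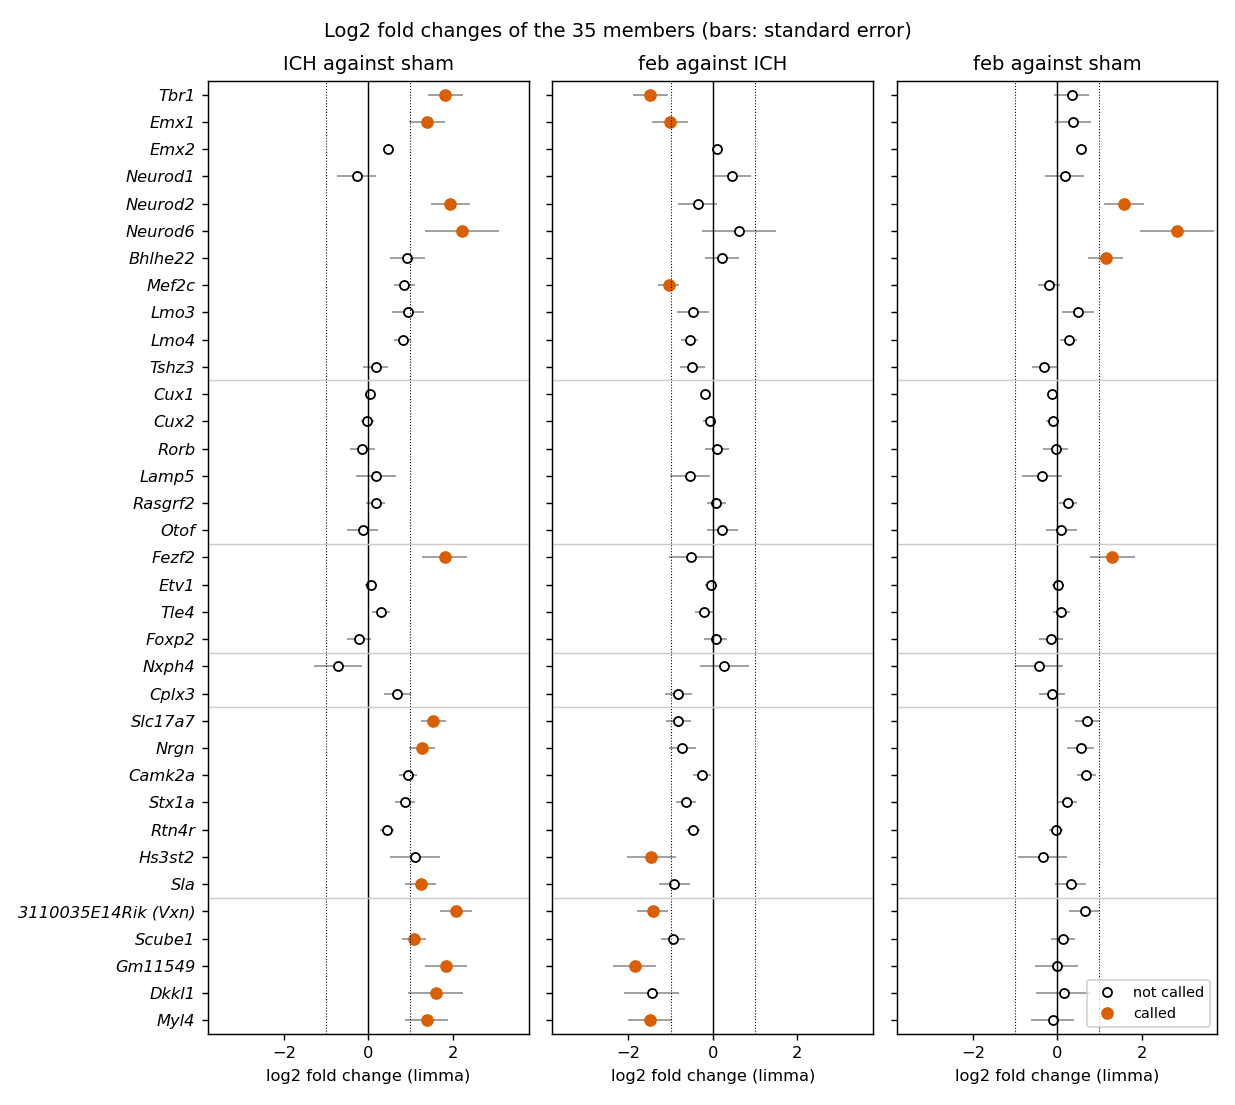
Log2 fold changes of the 35 members in the 3 comparisons, as points with their standard errors, on the scale of log2(RPKM + 0.1), with called genes filled and the fold change of 2 as dotted lines. The 13 filled points of ICH against sham lie to the right, the 7 of feb against ICH to the left and the 4 of feb against sham to the right.

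The median over members of the log2 value relative to the sham mean was 0.27, 0.03 and -0.24 in sham samples, 0.80, 0.96 and 0.59 in ICH samples and 0.00, 0.41 and 0.20 in feb samples. The 3 ICH samples stood above all others, and the feb samples overlapped the sham samples, with feb 2 above sham 1. ICH 2 held the highest value of the 9 samples for 15 members and ICH 1 for 8. Within the sham group, sham 1 was highest for 23 members and sham 3 lowest for 17. The summed RPKM of the members was 304 to 480 in sham, 707 to 966 in ICH and 533 to 641 in feb samples, a sum in which Nrgn and Camk2a dominate.

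A list of 24 further genes of cortical projection neurons, none of them members, was also chosen with earlier results of these libraries known, so it is not independent evidence. It gave 7 genes called higher in ICH than in sham and 0 lower (Mpped1, Nr4a2, Nptx1, Itpka, Ddn, Kcnv1 and Dkk3), beside 1.46% and 1.07% of all genes. All 24 had a positive log2 fold change, with a median of 0.78. For feb against ICH 2 of the 24 fell, Nr4a2 and Kcnv1, where 1.05% of all genes were called lower, and the median was -0.32. For feb against sham 0 were called, with 1 at an unadjusted p under 0.05 in limma and a median of 0.32. Kcnv1, a modifier subunit of potassium channels, had an RPKM of 0.964, 2.46 and 0.696 in sham samples, 4.26, 4.09 and 3.84 in ICH samples and 1.68, 1.66 and 2.14 in feb samples. The text of the study names Nr4a2 from these libraries.

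Markers of other brain regions also differed between the samples, as the mean log2 value of each list over its sham mean shows. The 8 genes of thalamic neurons had -0.33, -0.03 and 0.36 in sham samples, -1.14, -2.12 and 0.03 in ICH samples and 0.12, 0.28 and -1.09 in feb samples, and for ICH against sham all 8 had a negative log2 fold change, with 1 called (Tcf7l2, a Wnt effector of thalamus). The median of the 8 thalamic genes was -0.99 in that comparison. For feb against ICH all 8 had a positive log2 fold change, with a median of 0.74 and 0 called. Their summed RPKM was 149 to 229 in sham, 36.6 to 173 in ICH and 86.9 to 214 in feb samples. ICH 2, with the lowest thalamic value, also had the highest median of the members. The 8 genes of striatal medium spiny neurons had -1.48, 1.51 and -0.03 in sham samples, 0.34, 1.02 and 1.36 in ICH samples and 0.89, -0.17 and 0.59 in feb samples, on summed RPKMs of 108 to 632, 268 to 550 and 214 to 421, and 0 of the 8 were called or had an unadjusted p under 0.05 in limma. All 8 striatal genes had a positive log2 fold change for ICH against sham, with a median of 0.93, and a negative one for feb against ICH, with a median of -0.43. Sham 1, with the lowest striatal value of the 9, had the highest median of the members within sham. The 8 hippocampal genes were highest in feb 1 (1.01), ICH 2 (0.81) and feb 3 (0.79), with Spink8 called higher in feb than in sham. Their summed RPKM was 42.5 to 71.4 in sham, 46.1 to 87.6 in ICH and 54.7 to 77.3 in feb samples. The members Neurod6 and Bhlhe22, both called higher in feb than in sham, were also highest in feb 1, ICH 2 and feb 3. All 8 hippocampal genes had a positive log2 fold change for feb against sham, with a median of 0.60. For feb against ICH 7 were positive, with a median of 0.43, and for ICH against sham 6, with a median of 0.35. Their part in the differences of the cortical genes was not tested, and a difference in the tissue taken from each brain cannot be told apart from a difference between the groups.

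Choroid plexus genes, which line the ventricles, fell in feb against ICH for 6 of 6, on a summed RPKM of 364 to 1031 in sham, 456 to 965 in ICH and 30.3 to 87.8 in feb samples. In that comparison 1.05% of all genes were called lower. Among 6 immediate early genes, which neuronal activity induces, Arc, Egr1 and Nr4a1 rose in ICH against sham and Arc and Nr4a1 fell in feb against ICH, and their summed RPKM was 32.5 to 47.6 in sham, 63.9 to 106 in ICH and 40.3 to 43.7 in feb samples. Of 8 genes of GABA interneurons, Vip (mean RPKM 0.382 in sham) rose in ICH and Npy in feb against sham. For ICH against sham, 6 of the 8 had a positive log2 fold change. Pvalb went the other way, at -0.91 with an unadjusted p of 0.0234 in limma, and was not called. The summed RPKMs of the 8 were 207 to 300 in sham, 264 to 313 in ICH and 199 to 321 in feb samples. The 6 microglial genes had 1 call (Aif1, lower in feb than in ICH), on summed RPKMs of 40.8 to 54.3 in sham, 51.1 to 84.7 in ICH and 39.0 to 50.4 in feb samples. All 6 had a positive log2 fold change for ICH against sham, with a median of 0.49 and 2 at an unadjusted p under 0.05 in limma, and all 6 had a negative one for feb against ICH, with a median of -0.68, 5 at an unadjusted p under 0.05 and 4 without overlap. At that p, 7.88% of all genes were higher in the first comparison and 6.16% lower in the second, where 10.1% were lower without overlap. The 8 genes of neurons in general, 6 of astrocytes, 6 of oligodendrocytes and the 3 tested of 4 olfactory bulb genes had 0 calls in any comparison, with summed RPKMs over the 9 samples of 780 to 1128, 280 to 813, 496 to 919 and 1.23 to 7.07. At an unadjusted p under 0.05 in limma, at most 2 genes of any of these 4 lists differed in a comparison. No gene of these lists was at 0 in any sample but Tbx21 of the olfactory bulb. The part of these genes in the differences of the members was not tested.

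**Figure D4:**
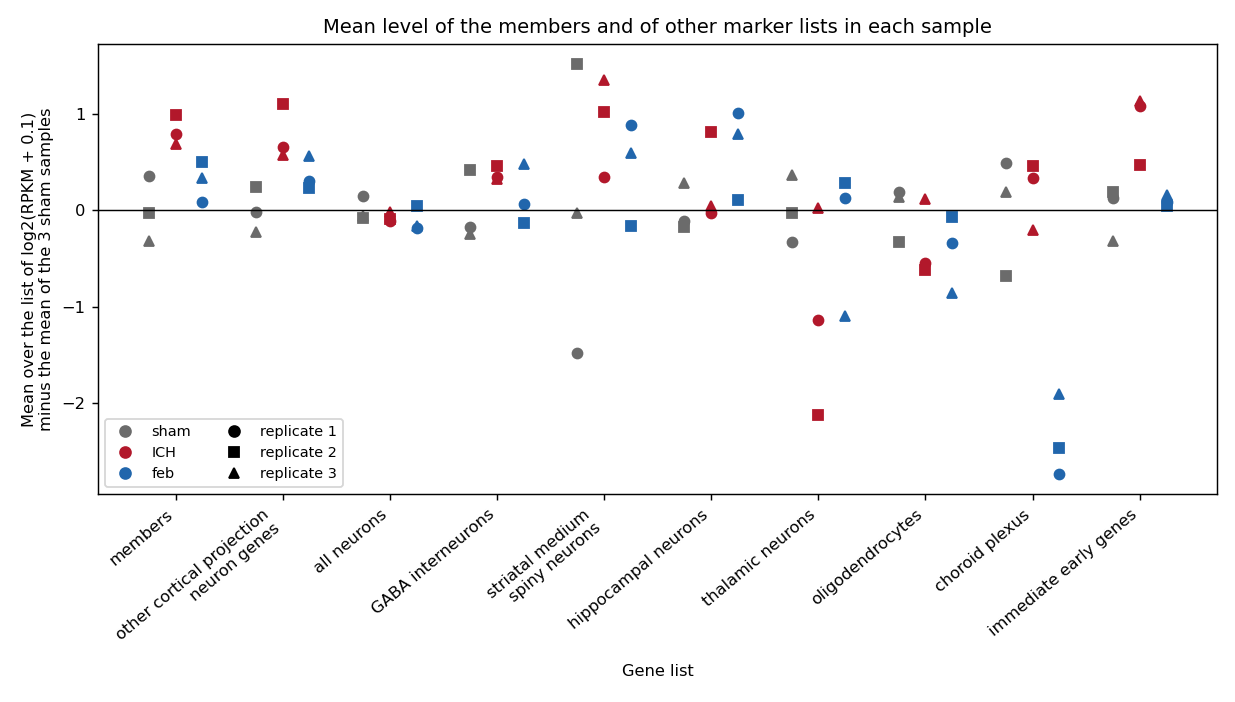
Mean over each gene list of log2(RPKM + 0.1) minus the mean of the 3 sham samples, for each sample, with color for the group and shape for the replicate number. The members, the other cortical projection neuron genes and the immediate early genes are highest in the 3 ICH samples. For the other cortical projection neuron genes, ICH 3 (0.572) is barely above feb 3 (0.566). Neurons in general stay near 0, and of the lists shown the thalamic, striatal and choroid plexus genes spread most.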

How the data were processed

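According to the study's methods, the authors trimmed reads with Trimmomatic (0.36), collapsed reads that shared a molecular identifier, aligned them to GRCm38, counted exonic reads by gene with featureCounts (Subread 1.5.1), deposited RPKM values for each sample and tested DEGs with edgeR (3.12.1). The gene annotation used, whether counting was by strand, and how reads matching more than 1 gene were handled are not given in the sources used here. Since the deposited unit is RPKM, limma (3.58.1 in R 4.3.3, with a trend) was fitted to log2(RPKM + 0.1), keeping a gene if 3 or more of the 9 samples reached an RPKM of 0.1. All groups entered 1 fit without a block. The test was checked on simulated counts, drawn independently for each gene and with the same spread beyond counting error. Genes of real tissue vary together and by unlike amounts, so that check does not bear on how reliable the calls here are.

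Divided by the value of 1 read, 100% of the deposited RPKM values came out whole (tolerance 0.01), so reads were recovered, and voom on these reads called 13 members for ICH against sham, 9 for feb against ICH and 4 for feb against sham. The chi-square per gene between samples of a group was 13.9 to 48.5, beyond counting error, so no sample was treated as a copy. Promoters came from RefSeq and positions from the deposited table. Python (3.11.15), pandas (2.3.3), numpy (2.4.6) and matplotlib (3.10.9) were used for tables and figures.

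The members and the marker lists were chosen with earlier results of these data known. All 35 members could be named, with values in every sample for those called in a comparison with ICH and for the defining genes, and Bhlhe22, Emx2, Neurod1, Cux1 and Nxph4 were added after their values were seen. The alternatives were other pseudocounts, filters and scalings, no trend, a replicate block, voom, a fit of 2 groups, other call rules and each sample left out in turn. The result of 1 marker gene is not reported here.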

Additional observations from a re-analysis of the deposited data

How the results depend on the processing

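Over the alternatives, the median log2 fold change of the members ran from 0.70 to 0.94 for ICH against sham. It ran from -0.59 to -0.38 for feb against ICH and from 0.03 to 0.34 for feb against sham. The fit without a filter, the replicate block and the fit of 2 groups leave these fold changes as they are. Leaving out 1 of 3 samples moves a group mean by only part of the spread between replicates. These ranges therefore do not show how reliable the medians are. Counts of called members depended more on the rule. For ICH against sham, feb against ICH and feb against sham in that order, a pseudocount of 1 gave 7, 3 and 2 calls, a p under 0.05 without the fold change gave 21, 14 and 7, and an adjusted p under 0.05 gave 0, 0 and 0. Leaving out 1 sample at a time gave 8 to 14 calls for ICH against sham (8 without sham 3), 4 to 9 for feb against ICH (4 without feb 1) and 2 to 4 for feb against sham (2 without sham 2 or feb 3). The cause of these changes was not tested, beyond the smaller number of samples and, for the pseudocount, the smaller fold changes it gives low genes. No log2 fold change of a member with an unadjusted p under 0.05 changed sign. Called in every alternative that used the fold change were 5 of 13 for ICH against sham (Tbr1, Neurod2, Fezf2, Slc17a7 and 3110035E14Rik), 2 of 7 for feb against ICH (Tbr1 and 3110035E14Rik) and 2 of 4 for feb against sham (Neurod2 and Neurod6). Scaling the samples to equal medians moved the median of all genes for ICH against sham from 0.08 to -0.03 and the split of all called genes from 423 higher and 312 lower to 296 and 443, while 12 members stayed called higher and 0 lower. For feb against sham, equal medians moved the split from 461 and 178 to 300 and 252, with 3 members called higher. With the replicate number as a block, 12, 5 and 3 members were called, without Neurod6 for ICH against sham, Emx1 and Hs3st2 for feb against ICH, and Fezf2 for feb against sham. The labels number the replicates alike in each group without saying that a number marks a shared day or litter. To look for such a link, the log2 value of each gene was taken as its deviation from its group mean. The correlation of these deviations between same-numbered samples lay between -0.13 and 0.02, with 0 of 9 pairs over 0.1. By the same deviations, 0 samples correlated best with their own number. Genes at 5 to 20 reads, such as Gm11549, Dkkl1 and Emx1 in some samples, are limited by depth, and 32 of the 35 members reached an RPKM of at least 1 in 3 samples.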
